A study of Mus musculus with 24 samples.

Results

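MHC class I molecules display peptides from inside the cell on the cell surface, each as a heavy chain bound to the small light chain beta-2-microglobulin. The set described here holds 9 genes of the count table, chosen by symbol: H2-D1, H2-K1, H2-Q4, H2-Q6, H2-Q7, H2-T22, H2-T23, H2-M3 and B2m, out of 53465 gene identifiers. All 9 were found and all 9 passed the filter on low counts. They were measured by RNA-seq in natural killer (NK) cells sorted from B16F10 tumours, a mouse melanoma line grown under the skin of the flank of wild-type female B6 mice and taken at day 14. The 4 sorted populations were CD27+CD69+, CD27+CD69-, CD11b+CD69+ and CD11b+CD69-, with 6 libraries each and 100 cells per library, and the animals of all populations shared the strain, sex, tumour line and day. CD11b is an integrin chain carried by mature NK cells, CD27 marks less mature ones, and CD69 is a lectin found on recently activated cells and on cells that stay in tissue. The labels give neither the ages of the mice nor whether cells of the CD27+ gate were negative for CD11b, and there was no population from outside the tumour.

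H2-K1 and H2-D1 encode the classical class I heavy chains of B6 mice, which present peptides to CD8 T cells and bind inhibitory Ly49 receptors of NK cells. The other heavy chains are non-classical: H2-T23 encodes Qa-1, the ligand of the CD94/NKG2A receptor, H2-Q6 and H2-Q7 encode forms of Qa-2, H2-M3 presents peptides that start with N-formylmethionine, and H2-T22 is bound by some gamma-delta T cell receptors. NK cells read class I on other cells and carry it themselves, where it engages Ly49 receptors on the same membrane and takes part in setting how responsive the cell becomes. Interferons and NF-kappa B raise transcription of these genes, and NLRC5 acts as a class I transactivator in many cell types.

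Total counts ran from 1213914 to 2671533 per library. All 13 NK markers had counts in every population, and their summed level ran from 18000 to 21200 CPM (counts scaled to the library size with TMM factors) in CD27+CD69+, from 11800 to 20900 in CD27+CD69-, from 32600 to 40800 in CD11b+CD69+ and from 41800 to 48600 CPM in CD11b+CD69- libraries. The 11 T cell markers summed to 2150 to 3500 CPM in CD27+CD69+, 1050 to 2730 in CD27+CD69-, 1150 to 1510 in CD11b+CD69+ and 872 to 1220 CPM in CD11b+CD69- libraries; those at 0 counts were Cd4 in CD27+CD69+, Cd6 and Cd8a in CD11b+CD69+, and Cd4, Cd6 and Cd8b1 in CD11b+CD69- cells. The 8 fibroblast markers summed to 0 to 232 CPM in CD27+CD69+ libraries, with 6 of the 8 at 0 counts, and to 258 to 11000 CPM in CD27+CD69- libraries, where all 8 had counts. All 8 were at 0 counts in CD11b+CD69+ libraries, and in CD11b+CD69- libraries they summed to at most 8.02 CPM. CD27+CD69- replicate 6 stood apart, with the lowest total count, the lowest NK marker sum and 5957 CPM of melanoma markers, against 1.37 to 303.9 CPM in the other CD27+CD69- libraries. Many calls that rest on the CD27+CD69- cells are therefore also given without this library, where the text says so. Levels, sums, ratios, population orders and correlations are given with it, and their dependence on it was not tested.

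The heavy chain genes lie on mouse chromosome 17 and B2m on chromosome 2 (GRCm38, GENCODE M21), and all 9 are annotated as protein-coding. From low to high coordinate, H2-K1 spans chr17:33996017-34000347 on the minus strand, H2-D1 spans chr17:35262730-35267499, H2-Q4 spans chr17:35379617-35385290, H2-Q6 spans chr17:35424850-35430055 and H2-Q7 spans chr17:35439155-35443773, all on the plus strand. H2-T23 (chr17:36029773-36032855) and H2-T22 (chr17:36037128-36042747) lie next to each other on the minus strand, H2-M3 spans chr17:37270220-37274484 on the plus strand, and B2m spans chr2:122147686-122153083 on the plus strand.

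The region just before the start of class I genes carries a known order of control elements: a kappa B site, an interferon-responsive element, then the X2 and Y boxes bound by the complex that NLRC5 joins. The following windows show these elements for the 2 classical heavy chains, for H2-Q7 and H2-T23, which had the largest CD69 differences among heavy chains past the test, and for the light chain. They are RefSeq sequence of GRCm38.p6, 5′ to 3′ on the gene's strand, and capitals mark matches on either strand to GGGANTNNCC (kappa B), TTTCNNTT (interferon element), TGACG (X2 core) and ATTGG (Y box).

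H2-K1: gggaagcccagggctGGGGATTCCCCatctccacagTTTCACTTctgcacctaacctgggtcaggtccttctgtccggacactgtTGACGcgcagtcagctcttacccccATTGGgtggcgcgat
H2-D1: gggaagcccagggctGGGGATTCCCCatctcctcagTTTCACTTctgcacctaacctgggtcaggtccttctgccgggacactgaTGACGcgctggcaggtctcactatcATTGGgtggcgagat
H2-Q7: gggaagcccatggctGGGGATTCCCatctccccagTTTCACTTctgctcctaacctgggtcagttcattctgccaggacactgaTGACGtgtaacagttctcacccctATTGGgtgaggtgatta
H2-T23: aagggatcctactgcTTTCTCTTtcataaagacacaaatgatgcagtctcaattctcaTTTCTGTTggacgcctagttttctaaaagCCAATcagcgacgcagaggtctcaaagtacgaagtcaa
B2m: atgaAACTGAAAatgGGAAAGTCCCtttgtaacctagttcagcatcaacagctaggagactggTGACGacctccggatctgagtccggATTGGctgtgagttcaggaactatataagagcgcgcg

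The windows come from chr17:34000349-34000473 (minus strand) for H2-K1, chr17:35262908-35263032 (plus strand) for H2-D1, chr17:35439007-35439131 (plus strand) for H2-Q7, chr17:36032716-36032840 (minus strand) for H2-T23, and chr2:122147546-122147670 (plus strand) for B2m. The windows of H2-D1 and H2-T23 lie inside the gene spans given above, so the RefSeq and GENCODE starts of these 2 genes differ. Only bases before the RefSeq start were searched, and a missing match holds for that stretch alone. In the 250 bases before the RefSeq start, 8 of the 9 members had a kappa B match, the exception being H2-T23, while 3.44% of 32851 mouse promoters had one. The interferon element matched in all 9 members and in 21.3% of promoters, and both together stood in 8 members and in 0.624% of promoters. The letters of the interferon element were chosen after the members' sequences were seen. Its matches in the members, alone or with kappa B, are therefore no test of enrichment over other promoters. The longer interferon-stimulated response core TTTCNNTTTC, found in 2.98% of promoters, matched in H2-T22, H2-T23 and B2m. The X2 core letters matched in 7 members (not in H2-Q6 or H2-T23) and 17.8% of promoters, and Y box matches stood in 9 members and 33.8% of promoters. In H2-Q4 the TGACG (-73 to -69) lay just after a Y box match (-79 to -75). In H2-T22 it (-22 to -18) lay after all Y box matches. The matches of H2-Q4 and H2-T22 are thus not at the place of an X2 box in the order given above. The kappa B match lay before the interferon element in the 7 heavy chains that have both, and after it in B2m. Over the bases compared, the promoters of H2-D1 and H2-K1 were 87.4% identical, those of H2-D1 and H2-Q6 77.0% and those of H2-Q6 and H2-Q7 71.6%. That of H2-T23 was at most 41.7% identical to any other member's. Identity was counted without gaps and over a limited range of shifts. A low value can therefore come from an offset and does not by itself show unlike sequence. H2-K1 and H2-Q6, with the same kappa B and interferon element letters, had 32.0%. A match describes letters in the window and not binding of a factor.

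**Figure D1:**
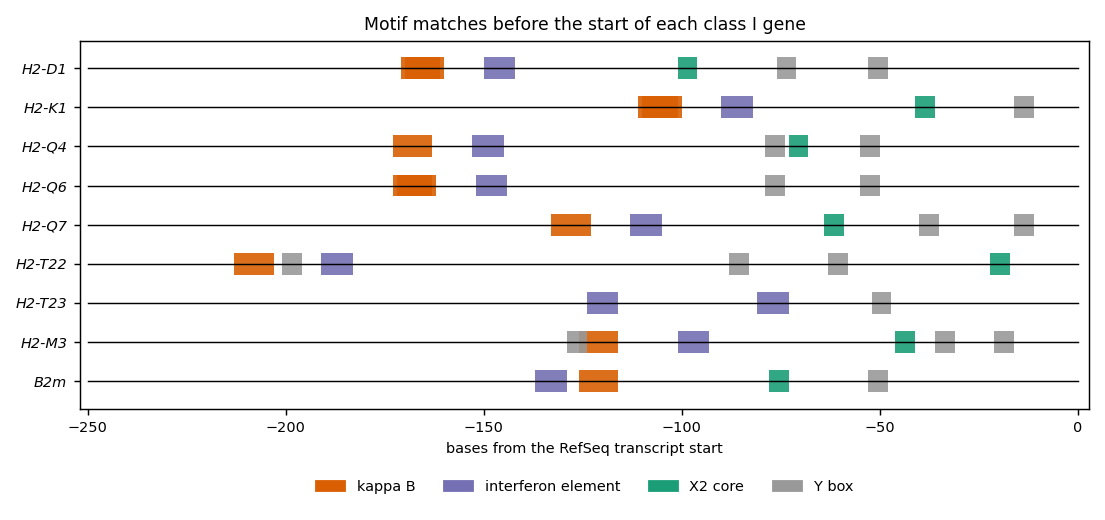
Positions of motif matches in the 250 bases before the RefSeq start of each member, in bases from the start (for H2-K1, the first of 2 RefSeq starts). H2-T23 has 2 interferon element matches and no kappa B match, and in B2m the interferon element comes before the kappa B match.

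Class I transcripts were among the most abundant of these NK cells. As CPM per kilobase of the longest transcript, averaged over all libraries, B2m stood at 6234 and was the 4th highest of 53274 genes, H2-D1 at 4208 was the 8th and H2-K1 at 2907 the 15th. On the same scale H2-Q6 stood at 709.8, H2-Q7 at 397.7, H2-T23 at 374.6, H2-M3 at 123.4, H2-T22 at 71.2 and H2-Q4 at 4.046 CPM per kilobase, and the order was the same with the length of all exons merged. Before division by length H2-Q7 was above H2-Q6, at a mean of 1674 against 1480 CPM. Its place below H2-Q6 rests on a longest transcript of 4209 against 2085 bases, and the merged exons have nearly the same lengths (4265 and 2085 bases). The 9 members together took 2.70% ± 0.159 of all counts in CD27+CD69+, 2.11% ± 0.205 in CD27+CD69-, 2.64% ± 0.138 in CD11b+CD69+ and 2.13% ± 0.0743 in CD11b+CD69- libraries (SD, n = 6 each). In bulk libraries, fewer cells with a transcript and less of it per cell cannot be told apart.

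Several of these genes resemble each other or relatives, and reads from shared stretches cannot be assigned with certainty. Of the 50-base stretches of its transcripts, H2-T22 shared 53.5% with another gene, of which 31.2% with H2-T10 and 26.5% with A930015D03Rik. H2-Q4 shared 36.4%, H2-Q6 35.0%, H2-Q7 26.5%, H2-T23 14.5%, H2-D1 12.8%, H2-K1 9.6%, H2-M3 0.6% and B2m none. With 100-base stretches the shares were 31.5% for H2-T22 (24.0% with A930015D03Rik and 6.9% with H2-T10), 14.1% for H2-Q4, 13.0% for H2-Q6, 12.0% for H2-Q7 and at most 3.6% for the others. The kit keeps no strand, and exons of H2-T22 overlap the opposite-strand gene A930015D03Rik, which reached at most 1.78 CPM. Exons of H2-Q4 overlap Gm11131 on the other strand, which reached 19.4 CPM where H2-Q4 itself reached 19.96 CPM, so the H2-Q4 counts are uncertain.

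Of the 9 class I genes, 4 rose in CD69+ relative to CD69- cells in the CD27+ or the CD11b+ compartment, and none fell. H2-Q7 and H2-T23 passed the test in both compartments, H2-K1 in CD27+ cells and B2m in CD11b+ cells, with rises of 1.27-fold to 1.59-fold. H2-D1, the most abundant heavy chain, differed by 1.19-fold in CD27+ and 1.07-fold in CD11b+ cells and passed in neither in the fit described next. Tests are edgeR's quasi-likelihood F-test in 1 fit to all 24 libraries, with p-values adjusted by Benjamini-Hochberg over 10536 genes and a threshold of 0.05.

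In CD27+ cells, 3 of the 9 members rose and none fell between CD69+ and CD69- libraries, where 1.85% of all genes tested were called. The log2 fold change was positive for all 9, with a median of 0.43 over the members and -0.01 over all genes tested. Of the 2309 genes with a mean of at least 100 CPM, 3.64% were called. At an unadjusted p under 0.05, 7 members passed. The CD27+CD69- libraries carried fibroblast transcripts, and with these as a covariate 0 of the 9 members and 0.00949% of all genes passed, while the log2 difference of H2-T23 was 0.69 against 0.62 without the covariate. With CD27+CD69- replicate 6 left out, 4 members and 1.13% of all genes passed.

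In CD11b+ cells, 3 of the 9 members rose and none fell, where 2.74% of all genes tested were called. The log2 fold change was positive for 8 of the 9, with a median of 0.39 over the members and 0.00 over all genes tested. Among the genes of at least 100 CPM, 7.62% were called, and 7 members passed an unadjusted p of 0.05. The 2 comparisons use separate libraries, though they share 1 estimate of the spread.

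**Figure D2:**
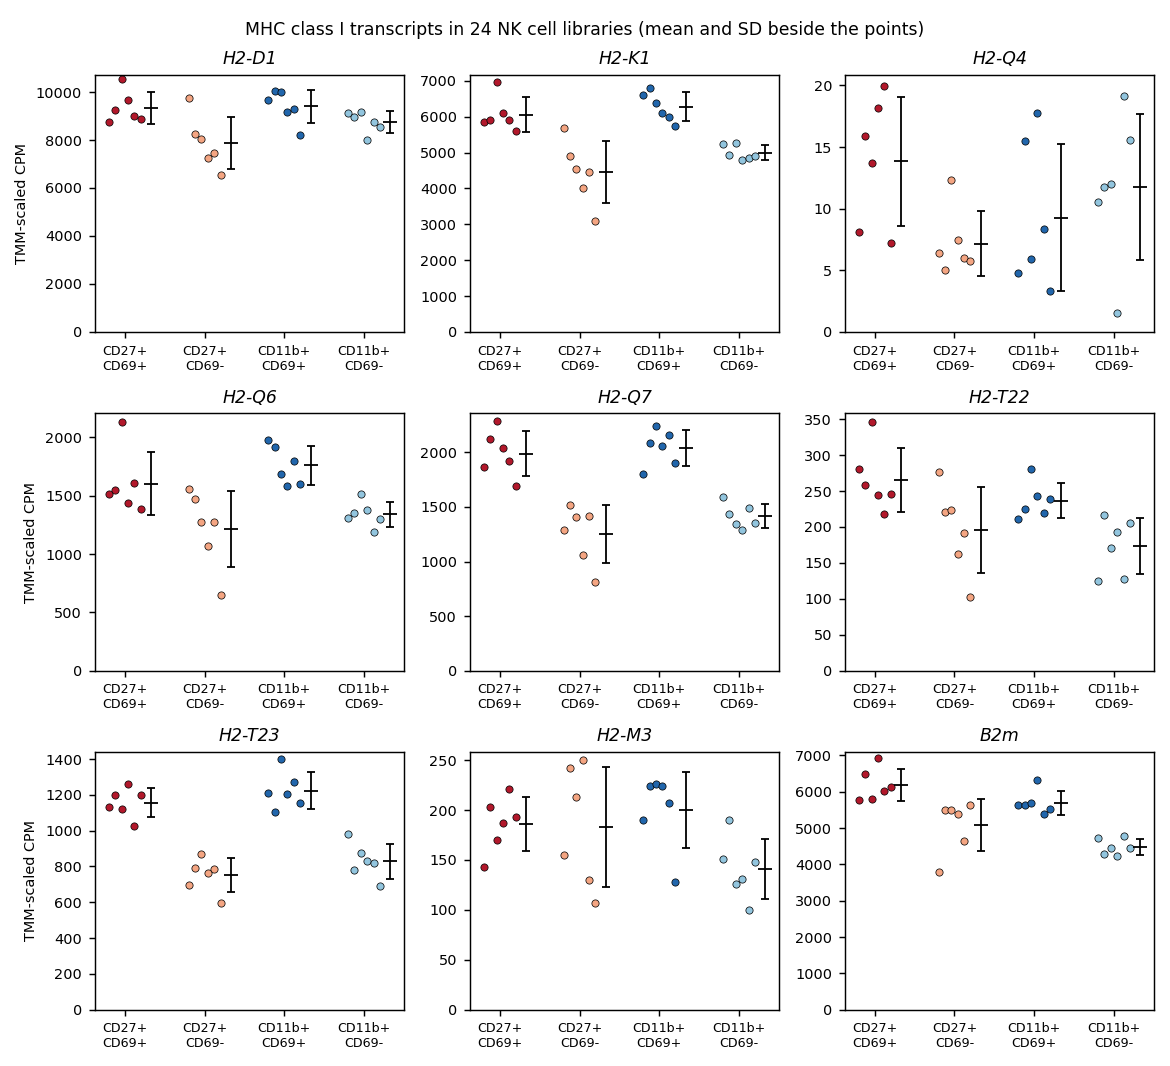
TMM-scaled CPM of each member in each of the 24 libraries, in order of replicate number within each population, with the mean and SD beside the points. For H2-Q7 and H2-T23 every CD69+ library lies above every CD69- library of its compartment.

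H2-T23, the Qa-1 gene, had the smallest adjusted p in both compartments. Its lowest, median and highest levels were 1026, 1164 and 1260 CPM in CD27+CD69+ libraries, against 596.3, 775.2 and 870.1 CPM in CD27+CD69- libraries. In CD11b+ cells they were 1103, 1206 and 1398 CPM with CD69, against 689.3, 825.3 and 979.8 CPM without it. The groups did not overlap in either compartment. The CD69 difference was 0.62 (log2, SE 0.09, adjusted p = 0.000218), or 1.54-fold with a 95% interval of 1.35 to 1.76, in CD27+ cells. In CD11b+ cells it was 0.56 (log2, SE 0.09, adjusted p = 0.000503), or 1.48-fold with an interval of 1.29 to 1.69.

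H2-Q7, a Qa-2 gene, ran from 1692 to 2283 CPM with a median of 1977 in CD27+CD69+ libraries, against 810.7 to 1520 CPM with a median of 1347 in CD27+CD69- libraries. In CD11b+ cells it ran from 1800 to 2240 CPM with a median of 2071 in CD69+ libraries, against 1288 to 1591 CPM with a median of 1394 in CD69- libraries. Again no CD69+ library fell into the range of the CD69- libraries. The differences were 0.67 (log2, SE 0.11, adjusted p = 0.000738), 1.59-fold, in CD27+ cells and 0.53 (log2, SE 0.11, adjusted p = 0.00598), 1.44-fold, in CD11b+ cells.

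H2-Q6, the other Qa-2 gene, moved less and did not pass. It ran from 1384 to 2131 CPM with a median of 1530 in CD27+CD69+ libraries, against 649.9 to 1555 CPM with a median of 1275 in CD27+CD69- libraries, and these groups overlapped. In CD11b+ cells it ran from 1581 to 1974 CPM with a median of 1743 in CD69+ libraries, against 1189 to 1514 CPM with a median of 1329 in CD69- libraries, with no overlap. The log2 differences were 0.40 (adjusted p = 0.179) in CD27+ and 0.39 (adjusted p = 0.146) in CD11b+ cells in edgeR's test. The CD27+ difference was 0.27 (adjusted p = 0.291) without CD27+CD69- replicate 6. The ratio of H2-Q6 to H2-Q7 counts had a median of 0.813 in CD27+CD69+ against 0.940 in CD27+CD69- libraries, and of 0.837 in CD11b+CD69+ and 0.951 in CD11b+CD69- libraries, and its ranges overlapped in both compartments. The 2 genes share sequence, and their sum averaged 3590 ± 450 CPM in CD27+CD69+ against 2468 ± 574 in CD27+CD69-, and 3801 ± 199 in CD11b+CD69+ against 2758 ± 107 CPM in CD11b+CD69- libraries (SD, n = 6 each).

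Of the classical genes, H2-K1 ran from 5610 to 6983 CPM with a median of 5903 in CD27+CD69+ libraries, against 3095 to 5676 CPM with a median of 4504 in CD27+CD69- libraries. Only CD27+CD69- replicate 1 lay above the lowest CD27+CD69+ library. In CD11b+ cells H2-K1 ran from 5748 to 6806 CPM with a median of 6249 in CD69+ libraries, against 4784 to 5278 CPM with a median of 4915 in CD69- libraries, without overlap. The difference passed in CD27+ cells (log2 0.44, SE 0.09, adjusted p = 0.00766, 1.36-fold). In CD11b+ cells it was 0.33 (log2, SE 0.09) with an adjusted p of 0.0532 in edgeR's test, just above the threshold. This difference passed in 9 of 13 other settings, among them DESeq2 (adjusted p = 0.0096), limma-voom (0.0116), the replicate block (0.0300) and a fit of the 2 populations alone (0.000801). Its highest adjusted p was 0.247 with the T cell covariate. It passed in only 3 of 24 fits that left out 1 library.

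H2-D1 ran from 8737 to 10530 CPM with a median of 9126 in CD27+CD69+ libraries, against 6546 to 9739 CPM with a median of 7734 in CD27+CD69- libraries. In CD11b+ cells it ran from 8225 to 10060 CPM with a median of 9483 in CD69+ libraries, against 7982 to 9178 CPM with a median of 8858 in CD69- libraries. The groups overlapped in both compartments, and the log2 differences were 0.25 (95% interval 0.09 to 0.41, adjusted p = 0.103) and 0.10 (95% interval -0.06 to 0.26, adjusted p = 0.63) in edgeR's test. In CD27+ cells H2-D1 passed with limma-voom (log2 0.24, adjusted p = 0.048), with the replicate block (0.26, adjusted p = 0.0407) and in edgeR's test without CD27+CD69- replicate 1 (0.32, adjusted p = 0.00806). Without replicate 6 its difference was 0.20 (adjusted p = 0.207), and it missed in 11 of 13 other settings. The ratio of H2-K1 to H2-D1 counts ran from 0.631 to 0.671 in CD27+CD69+ libraries, against 0.473 to 0.601 in CD27+CD69- libraries. It ran from 0.639 to 0.699 in CD11b+CD69+ libraries, against 0.548 to 0.599 in CD11b+CD69- libraries. The ranges of this ratio did not overlap in either compartment. The ratio was chosen after the values were seen and was not tested.

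B2m, the light chain of all these molecules, ran from 5775 to 6928 CPM with a median of 6073 in CD27+CD69+ libraries, against 3802 to 5634 CPM with a median of 5432 in CD27+CD69- libraries. In CD11b+ cells it ran from 5376 to 6317 CPM with a median of 5637 in CD69+ libraries, against 4221 to 4767 CPM with a median of 4453 in CD69- libraries. Neither pair of groups overlapped. The difference passed in CD11b+ cells (log2 0.35, SE 0.08, adjusted p = 0.0113, 1.27-fold) and had an adjusted p of 0.0546 in CD27+ cells (log2 0.29, SE 0.08, 1.22-fold) in edgeR's test. Of 13 other settings only 1, limma-voom, called the CD27+ difference (adjusted p = 0.0119). Of 24 fits that left out 1 library, 16 called it.

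The less abundant members had wider errors. H2-T22 averaged 266 ± 44.2 CPM in CD27+CD69+ against 196 ± 59.4 in CD27+CD69-, and 237 ± 24.6 in CD11b+CD69+ against 173 ± 39.1 CPM in CD11b+CD69- libraries (SD, n = 6 each), with log2 differences of 0.43 (adjusted p = 0.290) and 0.45 (adjusted p = 0.207) in edgeR's test. The CD27+ difference of H2-T22 was 0.31 (adjusted p = 0.554) without CD27+CD69- replicate 6. H2-M3 averaged 186 ± 27.1 CPM in CD27+CD69+ against 183 ± 60.4 in CD27+CD69-, a log2 difference of 0.02 with a 95% interval of -0.37 to 0.42, and of -0.089 without replicate 6. In CD11b+ cells H2-M3 averaged 200 ± 37.8 CPM with CD69 against 141 ± 30.3 CPM without it, a log2 difference of 0.50 with an interval of 0.11 to 0.90 and an adjusted p of 0.186 in edgeR's test. H2-Q4, with 4 to 44 counts per library, averaged 13.8 ± 5.24 CPM in CD27+CD69+ against 7.15 ± 2.64 in CD27+CD69-, and 9.27 ± 5.98 in CD11b+CD69+ against 11.8 ± 5.93 CPM in CD11b+CD69- libraries. Its 95% intervals ran from -0.21 to 2.09 and from -1.48 to 0.79 (log2), so even a 2-fold difference was not detectable at this depth.

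**Figure D3:**
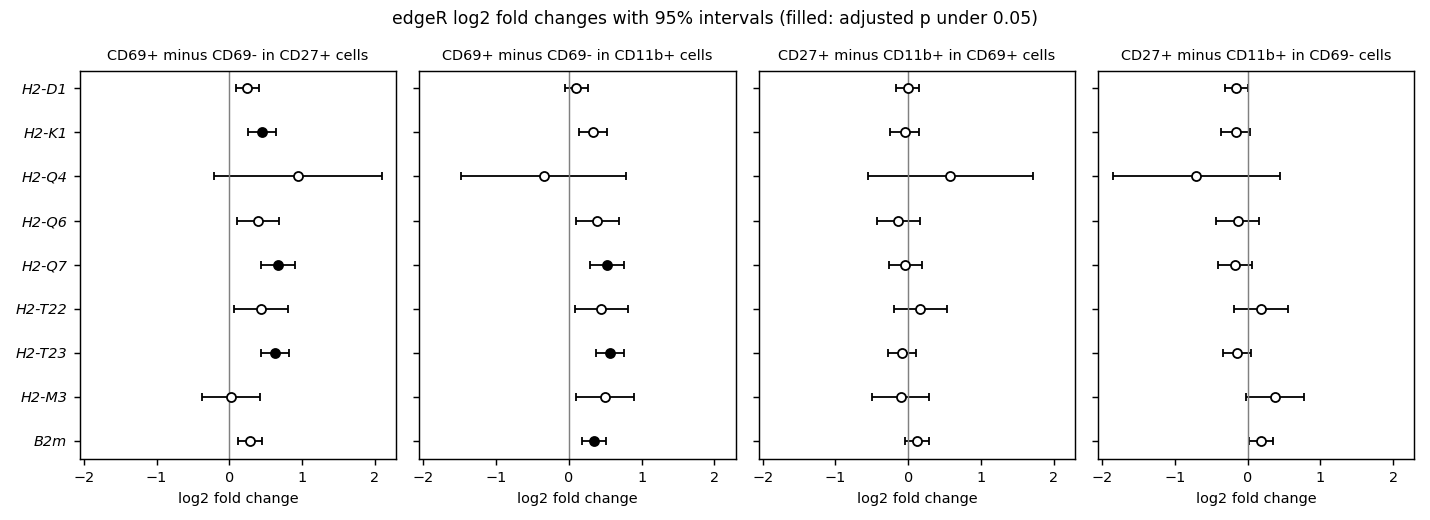
Log2 fold changes of the 9 members in 4 comparisons from the edgeR fit, with 95% intervals; filled points have an adjusted p under 0.05. The CD69 differences of H2-Q7 and H2-T23 lie between 0.53 and 0.67, while no member is filled in the CD27+ minus CD11b+ panels.

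Among CD69+ cells, none of the 9 members was called between CD27+ and CD11b+ cells, where 1.90% of all genes tested were, and none passed an unadjusted p of 0.05 in edgeR's test; DESeq2 and limma-voom also called 0. The log2 fold changes ran from -0.13 to 0.58 with a median of -0.04, and those of H2-D1, H2-K1, H2-Q7 and H2-T23 from -0.08 to -0.01. For H2-D1 the 95% interval was -0.17 to 0.15, and for B2m, with the lowest adjusted p of 0.651, the difference was 0.12 with an interval of -0.04 to 0.28. CD27+CD69+ and CD11b+CD69+ libraries overlapped for every member.

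Among CD69- cells, none of the 9 members was called between CD27+ and CD11b+ cells either in edgeR's test, while 12.4% of all genes tested were and 24.2% of the genes of at least 100 CPM. DESeq2 and limma-voom also called 0, and 1 member, B2m, passed an unadjusted p of 0.05. B2m was 0.18 (log2, SE 0.08, adjusted p = 0.157) higher in CD27+CD69- libraries. H2-D1 differed by -0.15, H2-K1 by -0.17, H2-Q7 by -0.18 and H2-T23 by -0.14 (log2), each with an adjusted p of 0.222 or more. Without CD27+CD69- replicate 1, which had the highest heavy chain sum and the lowest B2m of its population, 2 members were called: B2m, higher by 0.25 (adjusted p = 0.00766), and H2-D1, with -0.23 (adjusted p = 0.0236) in edgeR's test. Without replicate 6 none was called in that test, with 0.15 (log2, adjusted p = 0.296) for B2m and -0.11 (adjusted p = 0.431) for H2-D1. Over all genes, 13.7% were called without replicate 1 and 9.82% without replicate 6.

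The CD69 difference itself was compared between the compartments. None of the 9 members was called, where 0.579% of all genes tested were, and none passed an unadjusted p of 0.05 in edgeR's test; DESeq2 and limma-voom also called 0. The difference between the CD69 differences, CD27+ minus CD11b+, was 0.06 (log2, 95% interval -0.21 to 0.33) for H2-T23, 0.14 (-0.19 to 0.47) for H2-Q7, 0.12 (-0.16 to 0.39) for H2-K1, 0.14 (-0.08 to 0.37) for H2-D1 and -0.06 (-0.29 to 0.17) for B2m. For H2-M3 it was -0.48 (-1.04 to 0.08). In a test of any difference among the 4 populations, 5 members passed (B2m, H2-K1, H2-Q6, H2-Q7 and H2-T23), where 14.1% of all genes tested did. Without CD27+CD69- replicate 6, 6 members passed (H2-T22 in addition), where 12.5% of all genes did.

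The order of the populations by mean level was the same for H2-D1, H2-K1, H2-Q6, H2-Q7 and H2-T23: CD11b+CD69+, CD27+CD69+, CD11b+CD69- and CD27+CD69-. Of the neighbours in that order, the ranges of CD27+CD69+ and CD11b+CD69- libraries were apart for H2-K1, H2-Q7 and H2-T23, and all other neighbouring ranges overlapped. For B2m and H2-T22 the order was CD27+CD69+, CD11b+CD69+, CD27+CD69- and CD11b+CD69-, with all neighbouring ranges overlapping. H2-M3 followed CD11b+CD69+, CD27+CD69+, CD27+CD69- and CD11b+CD69-, and H2-Q4 CD27+CD69+, CD11b+CD69-, CD11b+CD69+ and CD27+CD69-, again with overlap throughout.

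Heavy and light chain RNA did not keep 1 ratio. The 8 heavy chains summed to 20620 ± 1580 CPM in CD27+CD69+, 15927 ± 2553 in CD27+CD69-, 21155 ± 1268 in CD11b+CD69+ and 17665 ± 781 CPM in CD11b+CD69- libraries (SD, n = 6 each). The ratio of that sum to B2m had a median of 3.24 in CD27+CD69+ (3.03 to 4.06) and 3.87 in CD11b+CD69+ libraries (3.26 to 3.99), and these overlapped. It had a median of 3.10 in CD27+CD69- and 3.92 in CD11b+CD69- libraries. In CD27+CD69- libraries the ratio ran from 2.11 in replicate 6 to 5.10 in replicate 1, a far wider span than the 3.64 to 4.18 of the CD11b+CD69- libraries. Ribosomal protein transcripts ran beside B2m: replicate 1 had 15070 CPM of them and the lowest B2m of all libraries, against 23829 to 28532 CPM in the other CD27+CD69- libraries, and their part in the ratio was not tested.

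**Figure D4:**
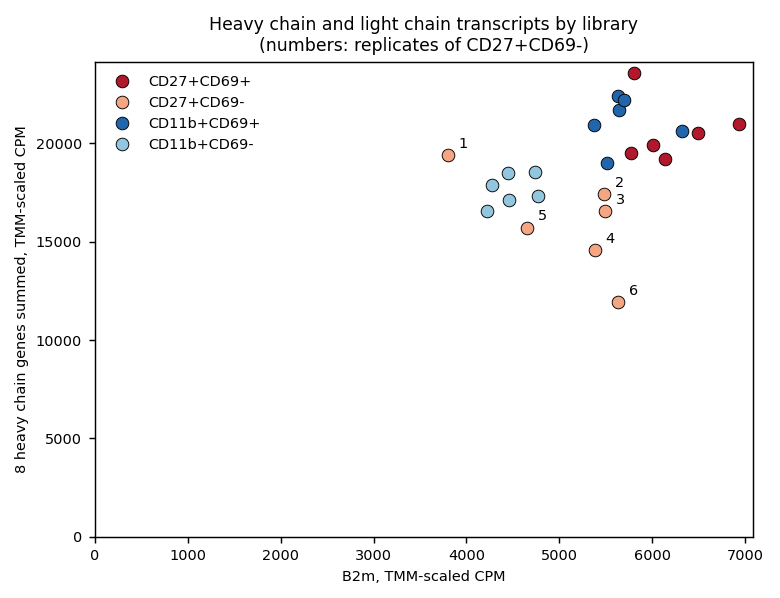
Summed CPM of the 8 heavy chain genes against CPM of B2m, 1 point per library, with replicate numbers of the CD27+CD69- libraries. CD69+ libraries lie at the upper right; CD27+CD69- replicate 1 has 3802 CPM of B2m with 19392 CPM of heavy chains, and replicate 6 has 5634 CPM of B2m with 11914 CPM of heavy chains.

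As a description over the 24 libraries, which share the 4 populations and the same scaling, most heavy chains varied together, H2-Q4 and H2-M3 less so. Pearson's r of log2 CPM was 0.92 between H2-D1 and H2-K1, 0.943 between H2-K1 and H2-Q6 and 0.902 between H2-Q7 and H2-T23. With the other heavy chains r ran from 0.051 to 0.388 for H2-Q4 and from 0.204 to 0.483 for H2-M3. For B2m it ran from 0.152 with H2-D1 to 0.528 with H2-Q7 and 0.663 with H2-T23, and was 0.322 with H2-K1. After the population means were taken out, H2-D1 and H2-K1 had r = 0.904, while H2-T23 had 0.28 with H2-D1, 0.332 with H2-K1 and 0.574 with H2-Q7. B2m then had -0.502 with H2-K1, -0.123 with H2-Q7 and 0.214 with H2-T23. The genes most like the mean of the 9 members, of 7942 genes ranked by r over 24 libraries, were Ctsw (0.892), a cathepsin of cytotoxic lymphocytes, Ncf4 (0.867), a subunit of the phagocyte NADPH oxidase, Clic1 (0.853), a chloride channel protein, Ms4a4b (0.850), Shisa5 (0.841), Cd2 (0.827), an adhesion receptor, Traf1 (0.816), a TNF receptor adaptor, and Tspan13 (0.815). Closest to H2-K1 were Ctsw (0.878), Pld3 (0.859), Clic1 (0.853) and Samd3 (0.847), and closest to H2-D1 were Ctsw (0.843), Cd300lf (0.807), the peptide-loading gene Tapbp (0.801) and Cd37 (0.780). Closest to B2m were Nop10 (0.910), Rps27a (0.905), Eef1a1 (0.885) and Rpl41 (0.869), of which Rps27a and Rpl41 encode ribosomal proteins and Eef1a1 a translation elongation factor.

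The CD27+ results meet the fibroblast transcripts of the CD27+CD69- libraries, which were at 0 in 4 of the 6 CD27+CD69+ libraries and at 16.0 and 232.1 CPM in the other two. Each CD27+CD69- library had more of them than any CD27+CD69+ library, so their sum and CD69 cannot be told apart in this compartment. With the summed fibroblast markers as a covariate, 0 of the 9 members were called for CD69 in CD27+ cells, and 0.00949% of all genes were, against 3 members and 1.85% without it. The log2 differences in that fit were 0.69 for H2-T23 (adjusted p = 0.808), 0.36 for H2-Q7 and 0.28 for H2-K1 (adjusted p = 1.00 each), and no member passed in edgeR's test. In CD11b+ libraries the sum was 0 to 8.02 CPM, so the covariate hardly varied there and this fit could not bear on the CD11b+ differences.

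The summed T cell markers averaged higher in CD69+ than in CD69- libraries of both compartments and higher in CD27+ than in CD11b+ libraries. With their sum as a covariate, H2-T23 kept its call in CD27+ cells (log2 0.54, adjusted p = 0.00887) and in CD11b+ cells (log2 0.50, adjusted p = 0.00405), and so did B2m in CD11b+ cells (log2 0.37, adjusted p = 0.011) in edgeR's test. H2-Q7 then had adjusted p-values of 0.0724 in CD27+ cells (log2 0.48) and 0.0585 in CD11b+ cells (log2 0.38), and H2-K1 in CD27+ cells 0.302 (log2 0.29). With the melanoma markers as a covariate H2-Q7 and H2-T23 passed in both compartments, while H2-K1 in CD27+ cells had an adjusted p of 0.0682. Without CD27+CD69- replicate 6, 4 members passed in CD27+ cells: H2-K1 (log2 0.36), H2-Q7 (0.57), H2-T23 (0.57) and B2m (0.32, adjusted p = 0.0331). The fit without that library also called 5 members in CD11b+ cells, adding H2-K1 (adjusted p = 0.00436) and H2-Q6 (adjusted p = 0.0232) with log2 differences of 0.33 and 0.39. Over all genes it called 1.13% in CD27+ and 3.07% in CD11b+ cells.

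The genes that make and load the peptides were described from lists. Of the 5 immunoproteasome genes, 4 rose with CD69 in CD27+ cells and 4 in CD11b+ cells, and none fell, where 1.85% and 2.74% of all genes tested were called. Without CD27+CD69- replicate 6, 3 of the CD27+ calls passed, where 1.13% of all genes did, and Psme1 had an adjusted p of 0.0612 in edgeR's test. With the fibroblast covariate 0 of the 5 passed in CD27+ cells, where 0.00949% of all genes did, with a median log2 difference of 0.35. Psmb8 and Psmb9, catalytic subunits that interferon-gamma brings into the proteasome, averaged 763 ± 53.4 and 560 ± 46.6 CPM in CD27+CD69+ against 532 ± 87.0 and 397 ± 77.5 CPM in CD27+CD69- libraries. The same subunits averaged 593 ± 56.7 (Psmb8) and 449 ± 44.9 CPM (Psmb9) in CD11b+CD69+ against 450 ± 21.1 and 273 ± 16.6 CPM in CD11b+CD69- libraries (SD, n = 6 each). Psme1 and Psme2, the subunits of the PA28 activator, differed by 0.48 and 0.62 (log2) in CD27+ and by 0.54 and 0.64 in CD11b+ cells. The median log2 difference of the 5 genes was 0.50 in CD27+ and 0.54 in CD11b+ cells, against -0.01 and 0.00 over all genes tested.

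Of the 8 genes of peptide transport and loading, none was called in CD27+ cells (2 at an unadjusted p under 0.05) and 2 rose in CD11b+ cells in edgeR's test. Over all genes tested, 1.85% were called in CD27+ and 2.74% in CD11b+ cells. Tap1, a subunit of the peptide transporter, averaged 283 ± 46.0 CPM in CD11b+CD69+ against 149 ± 29.7 CPM in CD11b+CD69- libraries (log2 0.93, adjusted p = 0.00341). Pdia3, a thiol oxidoreductase of the loading complex, differed by 0.35 (log2, adjusted p = 0.0363) in edgeR's test. The list's median log2 difference was 0.17 in CD27+ and 0.33 in CD11b+ cells.

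Of 21 regulators of class I transcription, 1 rose and none fell with CD69 in CD27+ cells, and 1 rose and 1 fell in CD11b+ cells, where 1.85% and 2.74% of all genes were called. Nlrc5, the class I transactivator, averaged 87.5 ± 30.8 CPM in CD27+CD69+ against 47.2 ± 11.7 CPM in CD27+CD69- libraries (log2 0.89, adjusted p = 0.0497), and these groups overlapped. It missed the threshold without CD27+CD69- replicate 6 (log2 0.98, adjusted p = 0.0526) and with the fibroblast covariate (log2 0.033, adjusted p = 1.00) in edgeR's test. In CD11b+ cells Nlrc5 was not called, at 73.1 ± 18.4 CPM with CD69 and 80.1 ± 24.3 CPM without it. Relb, an NF-kappa B subunit, rose in CD11b+ cells to 152 ± 31.5 CPM in CD69+ libraries, against 72.5 ± 26.4 CPM in CD69- libraries (log2 1.06, adjusted p = 0.0173). Irf8, an interferon regulatory factor, fell there by 0.70 (log2, adjusted p = 0.00928) in edgeR's test. In CD69- cells 2 of the regulators were higher and 3 lower in CD27+ than in CD11b+ cells, where 12.4% of all genes tested were called, among them Irf8 (log2 -2.12) and Ifngr1 (log2 -0.53), and Ifngr2 was called with 0 counts in all CD11b+CD69- libraries, against a mean of 30.6 CPM in CD27+CD69- libraries. Ifngr2 averaged 3.64 CPM in CD27+CD69+ libraries and had 0 counts in CD11b+CD69+ libraries. The summed fibroblast markers moved with it, at a mean of 5550 CPM in CD27+CD69-, 41.3 in CD27+CD69+, 0 in CD11b+CD69+ and 1.62 CPM in CD11b+CD69- libraries. With their covariate the Ifngr2 difference was 3.765 (log2, adjusted p = 0.757 in edgeR's test), against 9.019 without it. Only 0.408% of all genes passed in that fit, and the part of the fibroblast transcripts was not tested.

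The interferon-induced antiviral genes, such as the Oas family, differed between the compartments. Of 21 tested, 13 rose with CD69 in CD11b+ cells, where 2.74% of all genes were called, with a median log2 difference of 2.02, while none was called in CD27+ cells (5 at an unadjusted p under 0.05), where the median was 0.48. Bst2, a membrane tether of budding viruses, averaged 155 ± 21.3 CPM in CD27+CD69+ and 127 ± 24.5 in CD27+CD69-, and 154 ± 39.2 in CD11b+CD69+ and 47.7 ± 15.0 CPM in CD11b+CD69- libraries. Its CD69 difference was 1.40 smaller (log2, difference -1.40, adjusted p = 0.0153) in CD27+ than in CD11b+ cells in edgeR's test. Ifi44 had 0 counts in all CD11b+CD69- libraries, against 29.4 to 149 CPM in CD11b+CD69+ libraries. Between CD27+ and CD11b+ cells without CD69, 8 of the 21 were higher and none lower (median log2 1.19), where 12.4% of all genes were called. Without CD27+CD69- replicate 6, 9 were higher (9.82% of all genes), and with the fibroblast covariate 2 (0.408%). Among CD69+ cells none was called, where 1.90% of all genes were (median -0.02). In the comparison of the CD69 differences, 0.579% of all genes tested were called. Of the 21, 5 were called lower in CD27+ cells, and 0 of the 9 class I members were called.

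**Figure D5:**
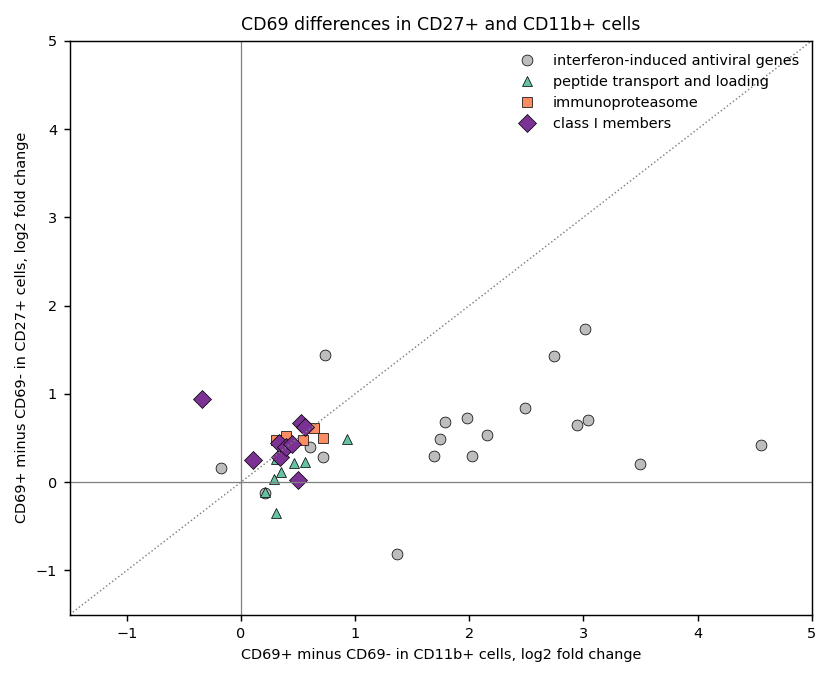
CD69+ minus CD69- log2 fold changes in CD27+ cells (vertical) against CD11b+ cells (horizontal), with a dotted line of equality; 2 of 21 interferon-induced antiviral genes lie outside the axes. The class I members and the immunoproteasome genes lie near the line, apart from H2-Q4 and H2-M3, and most interferon-induced antiviral genes lie to its right.

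NK cells carry the receptors for these molecules too. Of 17 genes tested from a list of receptors for class I and their relatives, 3 rose and none fell with CD69 in CD27+ cells. In CD11b+ cells 3 rose and 1 fell, and 1.85% and 2.74% of all genes were called. Nothing here shows that the listed relatives Lilr4b and Lilrb4a bind class I. Both are among the 3 rises in CD11b+ cells, and Lilr4b is among the 3 in CD27+ cells. At an unadjusted p under 0.05, 12 passed in CD27+ and 7 in CD11b+ cells, and the median log2 difference was 0.70 in CD27+ and 0.24 in CD11b+ cells. In CD27+ cells 1 receptor passed without CD27+CD69- replicate 6, Klra9 (adjusted p = 0.0203 in edgeR's test), where 1.13% of all genes did. The list median was then 0.62. With the fibroblast covariate no receptor passed, where 0.00949% of all genes did, with a median of 0.41. Lilr4b, of the leukocyte immunoglobulin-like receptors, averaged 326 ± 112 CPM in CD27+CD69+ against 129 ± 32.6 in CD27+CD69-, and 389 ± 74.3 in CD11b+CD69+ against 105 ± 61.6 CPM in CD11b+CD69- libraries, and rose in both, with an adjusted p of 0.112 in CD27+ cells without replicate 6 in edgeR's test. Its neighbour Lilrb4a rose in CD11b+ cells (log2 2.31), at 104 ± 21.7 CPM in CD69+ against 20.9 ± 17.7 CPM in CD69- libraries. This value is of the identifier ENSMUSG00000112148; a second identifier of the same symbol had 0 counts in all libraries. Reads of the 2 relatives cannot be assigned with certainty. Cd160, a receptor of class I and HVEM, rose there as well (log2 1.19), and Klrc2, the NKG2C gene, fell by 0.63. The Ly49 gene Klra9 averaged 374 ± 93.7 CPM in CD27+CD69+ and 194 ± 78.2 in CD27+CD69-, and 720 ± 147 in CD11b+CD69+ and 1080 ± 128 CPM in CD11b+CD69- libraries. Its CD69 difference was 1.53 higher (log2, adjusted p = 0.0119) in CD27+ than in CD11b+ cells in edgeR's test. Between CD27+ and CD11b+ cells, 3 receptors were higher and 3 lower among CD69+ cells, and 3 were higher and 7 lower among CD69- cells, with Klra9 at -2.48, Klra3 at -2.04 and Cd160 at 1.91 (log2) among CD69- cells. Over all genes 1.90% were called among CD69+ and 12.4% among CD69- cells. Among CD69- cells 3 receptors were higher and 6 lower without CD27+CD69- replicate 6, where 9.82% of all genes were called. With the fibroblast covariate none was called, where 0.408% of all genes were.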

How the data were processed

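The data are RNA-seq counts of 24 libraries. Per the labels' protocols, 100 cells were sorted per library into SMART-Seq v4 lysis buffer, full-length cDNA was amplified by PCR, and Nextera XT was used for the libraries. Such libraries keep no strand and have no molecular identifiers, so counting intervals cover counting error only. The authors deposited raw, unnormalized counts per gene. GRCm38, HTSeq and Picard are named in the submitters' processing notes; aligner, annotation release and strand setting: not given in the sources used here. Labels name the tumour cell type, while the design text names sorted NK cells, and groups follow the titles. The titles number the libraries M1 to M6, with a library of each population under each number. These are the replicate numbers used here, and whether M marks a mouse is not given. It is thus not known whether replicates are separate animals, and p-values reflect the spread of these samples alone, which may be technical. Replicates differed by more than counting error (chi-square per degree of freedom from 10.3 to 32.2 over 60 pairs).

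The table held 53471 rows, and 53465 gene identifiers after repeats were removed. The main test was the quasi-likelihood F-test (edgeR 4.0.16, R 4.3.3), fitted to 4 group means over all 24 libraries. TMM factors ran from 0.958 to 1.06, filterByExpr used a minimum count of 10, which left 10536 genes, and the fit was robust. Alternatives were limma 3.58.1 (voom), DESeq2 1.42.0, other scalings and filters, thinned counts, marker covariates, a replicate block and each library left out. For the gene lists, the fibroblast covariate and the fit without CD27+CD69- replicate 6 were added after seeing the data. The code was tested on simulated data. CPM are TMM-scaled. A count of 3 corresponds to 1.15 to 2.47 CPM.

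The members and lists were chosen with earlier results of these data known. All members were named in every comparison, with up to 4 genes of smallest p past the threshold per list and comparison, and the genes of highest Pearson r to the members (8) and to H2-K1, H2-D1 and B2m (4 each). The result of 1 gene that this rule names is not reported here. Shared stretches were counted from GENCODE M21 transcripts. All 9 members matched a RefSeq promoter entry; the 8-letter interferon motif was chosen after the sequences were seen.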

Additional observations from a re-analysis of the deposited data

Results flagged for a closer look

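In each member and population the library farthest from the rest was compared with the spread of its 6 libraries. Of 36 such groups 5 had a library set apart by Dixon's criterion, while chance gives about 1 in 20. H2-K1 stood at 6983 CPM in CD27+CD69+ replicate 3, where the next library had 6109 CPM. H2-Q6 stood at 2131 CPM in the same library, where the next had 1609 CPM. H2-Q4 stood at 12.29 CPM in CD27+CD69- replicate 3, where the next had 7.445 CPM. H2-M3 stood at 128.4 CPM in CD11b+CD69+ replicate 6, where the next had 189.6 CPM. B2m stood at 6317 CPM in CD11b+CD69+ replicate 4, where the next had 5699 CPM.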

How the results depend on the processing

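The CD69 calls of H2-T23 and B2m in CD11b+ cells passed in all 13 other settings, and every call of a member passed in all 24 fits that left out 1 library. The fibroblast covariate, among the 13, hardly varied in CD11b+ cells and is no check there. Other settings among them are scalings or filters of the same test. H2-Q7 in CD11b+ cells missed with the T cell covariate, and in CD27+ cells with the fibroblast and T cell covariates. H2-T23 in CD27+ cells missed with the fibroblast covariate. H2-K1 in CD27+ cells missed with each of the 4 marker covariates (fibroblast, macrophage, T cell, melanoma) and in a fit of the 2 populations alone. The cause was not tested. The T cell and melanoma covariates were chosen after seeing the data.

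Counts of called members moved as follows, with the share of all genes called in the same fit in brackets. For CD69 in CD11b+ cells, 5 members passed in a fit of the 2 populations alone (4.11%) and 5 with the melanoma covariate (2.72%). With 1 library left out 3 to 5 passed, among them 3 without CD27+CD69+ replicate 1 (2.37%) and 5 without CD27+CD69- replicate 6 (3.07%). For CD69 in CD27+ cells, 5 passed with limma-voom (2.78%), 0 with the fibroblast covariate (0.00949%) and 1 with the T cell covariate (0.702%). For CD27+ minus CD11b+ in CD69- cells, 1 (B2m) passed with library totals in place of TMM (13.1%) and 2 (H2-K1 and H2-Q7) with the T cell covariate (9.49%). With 1 library left out 0 to 2 passed, among them 0 without CD27+CD69- replicate 6 (9.82%) and 2 without replicate 1 (13.7%). For any difference among the populations, 3 passed with the fibroblast covariate (6.06%). For CD27+ minus CD11b+ in CD69+ cells and for the difference between the CD69 differences the count was 0 in every setting. In the main fit 1.90% and 0.579% of all genes were called in these 2 comparisons.

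With the replicate number as a replicate block, 4 members passed for CD69 in CD11b+ cells and 4 in CD27+ cells, 0 between CD27+ and CD11b+ cells in CD69+ and in CD69- cells, 0 for the difference between the CD69 differences and 6 for any difference. The share of all genes called with the block is not given here, so these counts cannot be set against it. Same-numbered libraries did not deviate together (r from -0.029 to 0.207 over 36 pairs, 1 of them over 0.1), and 10 of 72 best matches had the same number, so the numbers were not taken as pairs.

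Values that turned their sign were all uncalled, and are given on the log2 scale. With library totals only, CD27+ minus CD11b+ in CD69+ cells was 0.031 for H2-D1, 0.002 for H2-Q7, the difference between the CD69 differences was -0.045 for H2-Q6 and the CD69 difference in CD27+ cells was 0.000 for H2-M3. With the fibroblast covariate, CD27+ minus CD11b+ in CD69+ cells was 0.008 for H2-D1, 0.021 for H2-Q7, CD27+ minus CD11b+ in CD69- cells was 0.019 for H2-K1, 0.28 for H2-Q4, 0.22 for H2-Q6, 0.17 for H2-Q7, -0.018 for B2m and the difference between the CD69 differences was -0.037 for H2-K1, -0.30 for H2-Q6, -0.15 for H2-Q7, 0.10 for B2m. With the melanoma covariate, CD27+ minus CD11b+ in CD69+ cells was 0.012 for H2-D1, 0.024 for H2-Q7, CD27+ minus CD11b+ in CD69- cells was 0.001 for H2-K1, 0.17 for H2-Q6, 0.097 for H2-Q7, the difference between the CD69 differences was -0.019 for H2-K1, -0.25 for H2-Q6, -0.074 for H2-Q7, -0.019 for H2-T23 and the CD69 difference in CD27+ cells was -0.12 for H2-M3. With the macrophage covariate, the difference between the CD69 differences was -0.021 for H2-K1, -0.17 for H2-Q6, -0.022 for H2-Q7, -0.034 for H2-T23, CD27+ minus CD11b+ in CD69- cells was 0.007 for H2-Q6 and the CD69 difference in CD27+ cells was -0.10 for H2-M3. With the T cell covariate, CD27+ minus CD11b+ in CD69+ cells was -0.37 for H2-Q4, -0.64 for H2-T22, the difference between the CD69 differences was -0.045 for H2-Q6, CD27+ minus CD11b+ in CD69- cells was -0.56 for H2-T22, -0.28 for H2-M3 and the CD69 difference in CD27+ cells was -0.27 for H2-M3. With DESeq2 size factors, the difference between the CD69 differences was -0.024 for H2-Q6 and the CD69 difference in CD27+ cells was -0.007 for H2-M3. With DESeq2, the difference between the CD69 differences was -0.025 for H2-Q6 and the CD69 difference in CD27+ cells was -0.007 for H2-M3. With limma-voom, the difference between the CD69 differences was -0.001 for H2-Q6. With no count filter, the difference between the CD69 differences was -0.021 for H2-Q6. With a filter of a mean of 10 CPM, the difference between the CD69 differences was -0.011 for H2-Q6. With thinned counts, the difference between the CD69 differences was 0.028 for H2-T22 and the CD69 difference in CD27+ cells was -0.056 for H2-M3. With 1 library left out, CD27+ minus CD11b+ in CD69+ cells ran from -0.046 to 0.011 for H2-D1, from -0.083 to 0.004 for H2-Q7; the difference between the CD69 differences ran from -0.12 to 0.087 for H2-Q6, from -0.14 to 0.11 for H2-T22; the CD69 difference in CD27+ cells ran from -0.089 to 0.13 for H2-M3. Depth limits H2-Q4 most, with 4 to 44 counts per library.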

Other observations

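Most other class I and class I-like genes were scarcer than the members, but not all. H2-Q5 averaged 177 ± 26.1 CPM in CD27+CD69+, 151 ± 44.5 in CD27+CD69-, 180 ± 41.1 in CD11b+CD69+ and 146 ± 29.8 CPM in CD11b+CD69- libraries, about the level of H2-M3, and the population means of H2-K2 (39.3 to 62.4 CPM) and Cd1d1 (53.8 to 72.7 CPM) were above those of H2-Q4 (SD, n = 6 each). Of 29 listed, 23 were in the table and 9 were tested. With CD69 in CD27+ cells 2 fell and none rose, where 1.85% of all genes tested were called. Fcgrt, the neonatal Fc receptor, averaged 2.85 CPM in CD27+CD69+ against 61.6 CPM in CD27+CD69- libraries. Hfe, an iron-regulating class I-like gene, had 0 counts in CD27+CD69+ libraries against a mean of 9.81 CPM in CD27+CD69- libraries. Fcgrt averaged 61.6 CPM in CD27+CD69- against 0.492 CPM in CD11b+CD69- libraries, and was called there, where 12.4% of all genes tested were. The fibroblast markers moved with both genes (a mean of 41.3 CPM in CD27+CD69+, 5550 CPM in CD27+CD69- and 1.62 CPM in CD11b+CD69- libraries). With the fibroblast covariate none of these differences passed, but hardly any gene did. The shares of all genes were 0.00949% for CD69 in CD27+ cells and 0.408% for CD27+ minus CD11b+ in CD69- cells. The CD69 log2 difference in CD27+ cells was then -8.033 for Hfe, against -7.388 without the covariate, and -1.055 for Fcgrt, against -4.414. The part of the fibroblast transcripts was not tested. Without CD27+CD69- replicate 6 the CD69 differences in CD27+ cells had adjusted p-values of 0.092 for Fcgrt and 0.0886 for Hfe in edgeR's test. With the other H2 class I genes added, the heavy chain sum averaged 20899 ± 1605 CPM in CD27+CD69+, 16163 ± 2622 in CD27+CD69-, 21465 ± 1281 in CD11b+CD69+ and 17919 ± 787 CPM in CD11b+CD69- libraries (SD, n = 6 each), close to the sum of the 8 members.

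Of 8 class II genes tested, none was called with CD69 in either compartment (1 at an unadjusted p under 0.05 in CD27+ and 2 in CD11b+ cells, edgeR's test). The shares over all genes tested were 1.85% in CD27+ and 2.74% in CD11b+ cells. H2-Ab1 was called between CD27+ and CD11b+ cells without CD69, with a mean of 44.9 CPM in CD27+CD69- against 4.53 CPM in CD11b+CD69- libraries (log2 3.28, adjusted p = 0.0307). Of the 8, only H2-Ab1 was called there, where 12.4% of all genes tested were. It had an adjusted p of 0.108 without CD27+CD69- replicate 6 in edgeR's test. The 10 macrophage markers summed to 22.7 to 302 CPM in CD27+CD69- against 8.22 to 56.9 CPM in CD11b+CD69- libraries. The 302 CPM were of replicate 6, and the other CD27+CD69- libraries had at most 86.0 CPM. The list did not move as 1: Apoe averaged 58.2 against 3.31 CPM, but C1qa 0.329 against 0.724 and C1qb 0 against 5.51 CPM. The fibroblast markers averaged 5550 against 1.62 CPM in sum. The part of the macrophage markers in the H2-Ab1 difference was not tested.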
